A study of Mus musculus with 15 samples.

Results

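The TREM receptors and the proteins that carry their signal were followed through 15 RNA-seq libraries of brain myeloid cells from wild type C57BL/6J mice. The members are 9 genes of the 38924 listed in the deposited tables, taken by gene name and not by their values. They are the 6 receptor genes Trem1, Trem2, Trem3, Treml1, Treml2 and Treml4, the adaptor genes Tyrobp and Hcst, and the kinase gene Syk. The mice were males killed at 12 months of age. They had received either a chow diet (CD) or, from 2 months of age, a western diet (WD) rich in fat and sugar. All were perfused before the brain was taken, the olfactory bulb and cerebellum were removed, and CD11b+ cells were sorted into CD45hi and CD45lo fractions. This gave 4 CD CD45hi, 4 CD CD45lo, 3 WD CD45hi and 4 WD CD45lo libraries. The study describes the counts as deposited per animal. The labels name no mouse, so which CD45hi and CD45lo libraries came from the same brain is not known.

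TREM proteins are surface receptors of the immunoglobulin superfamily that are made mainly by myeloid cells. The signalling members have almost no cytoplasmic tail and depend on TYROBP (also called DAP12), an adaptor whose phosphorylated tail recruits SYK, a tyrosine kinase. HCST (DAP10) is a second adaptor, which signals through phosphoinositide 3-kinase. In the brain TREM2 is known as a lipid-sensing receptor of microglia and a risk gene for Alzheimer's disease, whereas TREM1 is known from blood neutrophils and monocytes, where it amplifies inflammatory signals.

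CD11b+CD45lo cells of the brain are mostly microglia, and the CD45hi fraction takes in other myeloid cells. The summed level of 10 microglial markers was 18360 to 23367 cpm (TMM-normalised read counts scaled to the same library total) in the 8 CD45lo libraries and 8847 to 10988 cpm in the 7 CD45hi libraries, so the CD45hi fraction also held microglial RNA. The border macrophage markers summed to 656.9 to 2389 cpm in CD45hi and 54.3 to 207.3 cpm in CD45lo libraries, and the 10 monocyte markers to 754.1 to 1524 cpm and 56.7 to 176.8 cpm. Of the CD45hi libraries, CD replicate 4 and WD replicate 1 lay farthest from the others on the second principal component. Each library held 11951412 to 17912272 expected counts, and 3 counts, used here as the smallest measurable value, stand for 0.156 to 0.282 cpm by counting error alone. In such bulk samples, fewer cells of a type and less RNA per cell cannot be told apart.

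The 6 receptor genes lie on chromosome 17 in the order Trem1, Trem3, Treml4, Treml2, Trem2 and Treml1, all on the plus strand and within 134.4 kb (build mm10, GENCODE M21). Trem1 (ENSMUSG00000042265) spans chr17:48232768-48246924, Trem3 (ENSMUSG00000041754) chr17:48247777-48258841 and Treml4 (ENSMUSG00000051682) chr17:48264295-48275360. Next come Treml2 (ENSMUSG00000071068) at chr17:48299498-48312533, Trem2 (ENSMUSG00000023992) at chr17:48346401-48354147 and Treml1 (ENSMUSG00000023993) at chr17:48359916-48367176. Tyrobp (ENSMUSG00000030579, chr7:30413760-30417585, plus strand) and Hcst (ENSMUSG00000064109, chr7:30417712-30419854, minus strand) end 126 bases apart, tail to tail. The sources used here do not say whether reads were counted by strand. Syk (ENSMUSG00000021457) spans chr13:52583173-52648792 on the plus strand.

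The promoters of 3 cluster genes are shown, those of Trem1 and Treml4, which were called as higher in CD45hi cells on both diets, and that of Trem2, the leading receptor of CD45lo cells. Each is the 250 bases before the RefSeq start on GRCm38.p6, plus strand, 5′ to 3′. RefSeq promoter entries were found for 6 of the 9 members, Trem3 not among them. Capitals mark matches on either strand to 3 short motifs of myeloid factors, PU.1 (GAGGAA), C/EBP (TTGCNNAA) and AP-1 (TGANTCA).
Trem1, chr17:48232489-48232738: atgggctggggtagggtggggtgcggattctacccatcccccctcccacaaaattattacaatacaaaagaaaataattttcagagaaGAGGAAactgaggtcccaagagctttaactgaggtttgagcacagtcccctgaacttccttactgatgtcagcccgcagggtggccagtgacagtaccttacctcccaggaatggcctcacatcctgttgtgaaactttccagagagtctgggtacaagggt
Treml4, chr17:48264045-48264294: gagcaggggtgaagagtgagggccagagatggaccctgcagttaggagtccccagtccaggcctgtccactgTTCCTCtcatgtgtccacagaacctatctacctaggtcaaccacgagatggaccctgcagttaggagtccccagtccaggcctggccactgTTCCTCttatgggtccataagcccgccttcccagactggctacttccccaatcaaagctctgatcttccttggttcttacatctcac
Trem2, chr17:48346151-48346400: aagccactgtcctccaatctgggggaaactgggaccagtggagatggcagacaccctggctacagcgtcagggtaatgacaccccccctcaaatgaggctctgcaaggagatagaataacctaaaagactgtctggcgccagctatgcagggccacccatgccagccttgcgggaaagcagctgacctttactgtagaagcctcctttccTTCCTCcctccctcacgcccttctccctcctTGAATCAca

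The letters of the PU.1 motif occurred in all 3 windows, at 1 place in Trem1 (162 bases before the start), at 2 places in Treml4 (178 and 87 bases before it) and at 1 place in Trem2 (40 bases before it). Trem2 also held the AP-1 letters 9 bases before its start, with A at the centre, where the pattern used here takes any base. They did not overlap the PU.1 match. The C/EBP letters were in none of these 3 windows. Of 32851 promoter windows of the same length, 23.2% held the PU.1 letters, 9.56% the C/EBP letters and 6.75% the AP-1 letters. These matches describe the sequence and were not read as binding sites.

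Trem1 was high in CD45hi cells and at or under 2.10 cpm in CD45lo cells. It was measured at 97.3, 108, 72.0 and 144 cpm in the CD CD45hi libraries and at 30.6, 34.7 and 26.5 cpm in the WD CD45hi libraries. In CD45lo cells it stood at 0.588, 1.30, 0.799 and 2.10 cpm on the CD and at 0.393, 1.04, 0.220 and 0.379 cpm on the WD. Every CD45hi library was far above every CD45lo library, and within the CD45hi fraction the WD libraries all lay below the CD libraries. The log2 fold change of CD45hi against CD45lo cells was 6.45 (SE 0.523, FDR = 8.35e-07) in CD-fed and 5.92 (SE 0.537, FDR = 3.15e-06) in WD-fed mice, or 87.2-fold and 60.4-fold.

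Treml4, a receptor of macrophages and dendritic cells that binds dying cells, had the same preference. The CD CD45hi libraries held 24.4, 15.6, 23.7 and 19.1 cpm and the WD CD45hi libraries 55.8, 63.9 and 65.2 cpm. In CD45lo cells there were 1, 1, 21 and 2 counts on the CD and 3, 4, 5 and 3 counts on the WD, with the 21 counts of CD replicate 3 equal to 1.29 cpm. CD45lo libraries were thus near the smallest measurable level apart from that replicate, and no CD45lo library reached any CD45hi library. The log2 fold change was 5.77 (SE 0.792, FDR = 0.000233) in CD-fed mice and 7.90 (SE 0.886, FDR = 2.50e-05) in WD-fed mice. Without CD CD45lo replicate 3, the value of Treml4 in CD-fed mice was 7.96.

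Trem3, an activating receptor of mouse macrophages that has no working human counterpart, varied from library to library. It was at 1.38, 11.3, 1.14 and 0.515 cpm in CD CD45hi cells and at 39.1, 1.74 and 5.98 cpm in WD CD45hi cells. In CD45lo cells the CD libraries had 0.529, 1.71, 0.430 and 0.454 cpm, whereas the WD libraries had 1, 0, 0 and 0 counts. The CD45hi libraries were uneven on both diets, and only in WD-fed mice were they all above the CD45lo libraries. Trem3 rose in CD45hi against CD45lo cells of WD-fed mice (log2 fold change 9.29, SE 1.64, FDR = 0.00202). With the WD CD45lo libraries at or under 3 counts this fitted value is not a bound, and against 3 counts per library the level in WD CD45hi cells was at least 77.0-fold higher, or at least 19.0-fold higher without WD CD45hi replicate 1. Without WD CD45hi replicate 1 the fitted value for Trem3 was 7.28, without WD CD45lo replicate 1 it was 10.86, and it stayed past the threshold in both fits. In CD-fed mice the log2 difference of Trem3 was 2.18 (SE 1.12, FDR = 0.469), and without CD CD45hi replicate 2 it was 0.36.

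**Figure D1:**
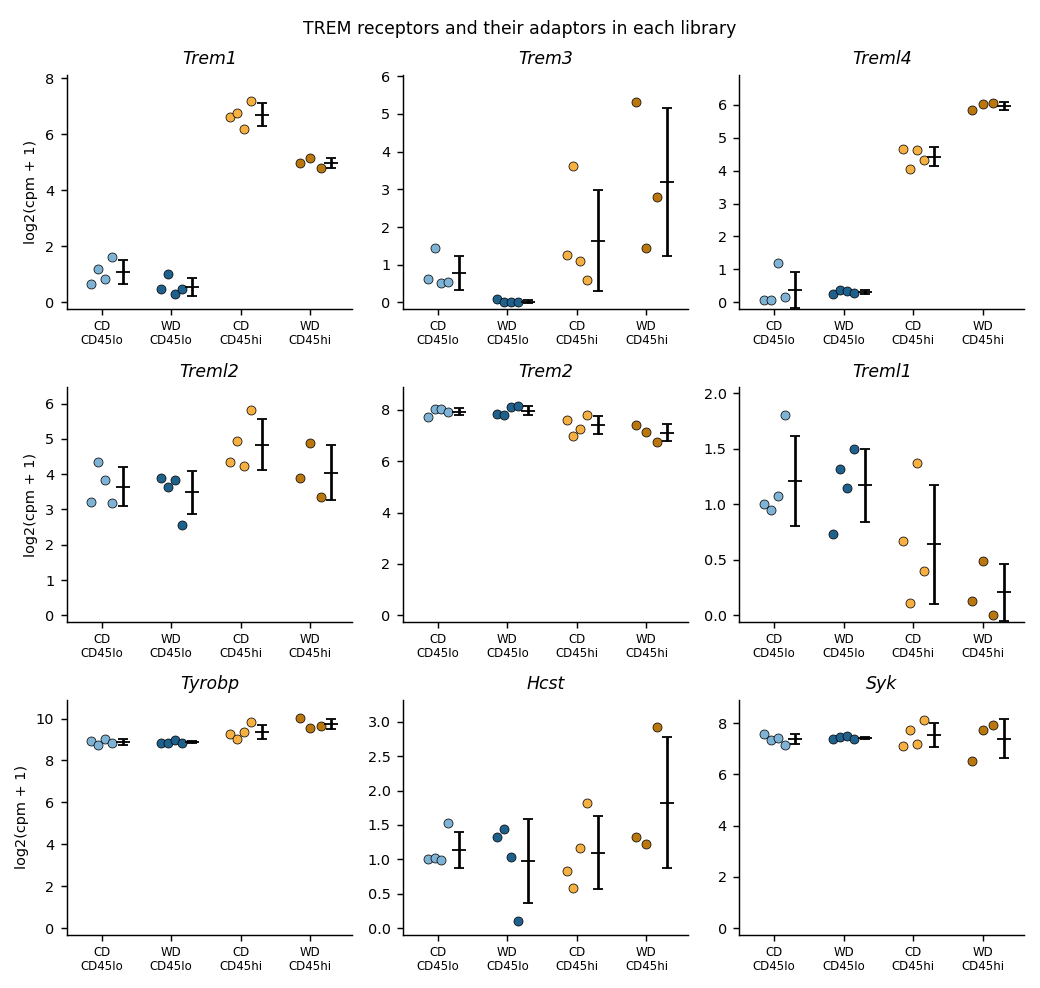
Level of each of the 9 genes in each library, as log2(cpm + 1), for the 4 groups of diet and CD45 level (dots, with the group mean and SD in black beside them). Trem1 and Treml4 separate the CD45hi from the CD45lo libraries without overlap, Trem2 lies highest in CD45lo libraries, and Trem3 in WD CD45hi cells is spread from 1.74 to 39.1 cpm.

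Trem2 ran the other way, by a small amount in cpm. CD45lo libraries held 211, 261, 262 and 243 cpm on the CD and 229, 221, 274 and 282 cpm on the WD. CD45hi libraries held 195, 127, 152 and 220 cpm on the CD and 171, 140 and 108 cpm on the WD. In WD-fed mice every CD45hi library was below every CD45lo library, and in CD-fed mice CD45hi replicate 4 passed the lowest CD45lo library. The log2 fold change was -0.85 (SE 0.208) in WD-fed mice, which did not pass the test for a change over 1.5-fold (FDR = 0.226) and passed the test for any change (FDR = 0.0140), which 9.12% of all genes passed. In CD-fed mice it was -0.49 (SE 0.189, FDR = 0.911 over 1.5-fold, FDR = 0.137 for any change).

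The other 2 cluster genes were called in neither diet. Treml2, which is made by B cells, macrophages and neutrophils, was found at 17.9 to 55.4 cpm in CD CD45hi, 9.28 to 28.5 cpm in WD CD45hi, 8.06 to 19.4 cpm in CD CD45lo and 4.92 to 13.9 cpm in WD CD45lo libraries, with overlap between the fractions on both diets. Its log2 difference between fractions was 1.32 (SE 0.516, FDR = 0.317) in CD-fed and 0.66 (SE 0.546, FDR = 0.718) in WD-fed mice. Treml1, a platelet and megakaryocyte member, stayed at or under 2.50 cpm in all libraries. It was higher in each WD CD45lo library (0.656 to 1.82 cpm) than in any WD CD45hi library (0 to 0.403 cpm), with a log2 difference of -2.88 (SE 1.35, FDR = 0.292). The platelet list of 8 markers summed to 9.33 to 18.4 cpm in CD45lo and 33.3 to 126.2 cpm in CD45hi libraries, but Pf4 made up most of the CD45hi sum. Without Pf4 the other 7 summed to 6.75 to 13.3 cpm in CD45lo and 1.74 to 6.55 cpm in CD45hi libraries, and Gp6 was at 0 counts in all 15 libraries.

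Among the adaptors, Tyrobp had the highest TPM of the members in all 4 groups. Its libraries held 616, 516, 665 and 910 cpm in CD CD45hi, 1026, 746 and 810 cpm in WD CD45hi, 485, 427, 523 and 452 cpm in CD CD45lo and 457, 460, 495 and 458 cpm in WD CD45lo cells. The CD45lo libraries of both diets lay close together, and in WD-fed mice each CD45hi library was above each CD45lo library. The log2 difference was 0.88 (SE 0.167) in WD-fed mice, with FDR = 0.141 for a change over 1.5-fold and FDR = 0.00226 for any change. In CD-fed mice it was 0.52 (SE 0.156), with FDR = 0.895 and FDR = 0.0492, and 8.03% of all genes passed the latter test. The gap was smaller by TPM. Mean Tyrobp TPM was 2257 ± 224 in CD CD45lo and 2294 ± 406 in CD CD45hi cells. On the WD it was 2243 ± 132 and 2803 ± 493.

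Hcst was scarce, at 0.0758 to 6.59 cpm. Its highest value, 86 counts in WD CD45hi replicate 3, fell in the library with the highest summed level of the 10 NK and T cell markers (140.3 cpm, against 12.4 to 53.1 cpm in the other CD45hi libraries, with 3 to 6 of the 10 markers at 0 in each CD45hi library). In CD CD45hi cells the order differed. Replicate 2, with the highest sum there (53.1 cpm), had the lowest Hcst (0.497 cpm). Replicate 4, with the lowest sum (12.4 cpm), had the highest Hcst there (2.51 cpm). The study's gating took CD3e-negative cells. In the WD CD45hi libraries the T cell genes Cd3e, Cd3g and Trac were at 0 and Cd3d at 0 to 0.268 cpm. The other markers of this list were uneven there. Gzma was at 14.3 to 64.0 cpm, Klrb1c at 0.134 to 56.3 cpm, Nkg7 at 2.73 to 18.9 cpm, Ncr1 at 0 to 1.92 cpm, Prf1 at 0 to 0.201 cpm and Eomes at 0. HCST is the partner of NKG2D in NK cells, and the part of those cells in the Hcst values was not tested. Without WD CD45hi replicate 3 the log2 difference of Hcst between the fractions of WD-fed mice was 0.39, against 1.53 (SE 1.05, FDR = 0.559) with it. In CD-fed mice the difference was 0.04 (SE 0.975, FDR = 1).

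Syk was present in every library, at 139, 209, 143 and 277 cpm in CD CD45hi, 90.5, 209 and 243 cpm in WD CD45hi, 192, 163, 168 and 140 cpm in CD CD45lo and 164, 175, 178 and 167 cpm in WD CD45lo cells. The CD45hi libraries spread on both sides of the CD45lo libraries. The log2 difference between fractions was 0.21 (95% interval -0.35 to 0.77) in CD-fed and 0.08 (-0.51 to 0.68) in WD-fed mice.

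Counted together, 3 of the 9 members (Trem1, Trem3 and Treml4) were higher in CD45hi than in CD45lo cells of WD-fed mice and none was lower. Among all 14967 genes tested, 5.18% were called in this comparison, 4.01% as higher and 1.17% as lower. In CD-fed mice 2 of the 9 (Trem1 and Treml4) were higher and none was lower, against 3.98% of all genes, 3.39% as higher and 0.588% as lower. The median log2 fold change of the members was 0.88 in WD-fed and 0.52 in CD-fed mice, beside 0 and 0.04 for all genes. The counts were also 3 and 2 when CD CD45hi replicate 4 and WD CD45hi replicate 1 were left out together. The 12 neutrophil markers summed to 1445 to 4480 cpm in CD45hi and 658.9 to 1494 cpm in CD45lo libraries. At most 2 of them were at 0 in any library. Csf3r alone held 464.9 to 744.5 cpm in CD45lo libraries. Without it the other 11 summed to 733.7 to 3856 cpm in CD45hi and 88.9 to 871.6 cpm in CD45lo libraries. These neutrophil sums separated the fractions within each diet but overlapped over both diets together. The single markers differed in this. S100a8, S100a9, Stfa2l1, Retnlg, Cxcr2 and Mmp9 did not overlap over both diets, and Ly6g, Csf3r, Camp, Ngp, Ltf and Lcn2 did. The monocyte and border macrophage sums are those given above. The part of these cell types in the differences of Trem1 and Treml4 between fractions was not tested.

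**Figure D2:**
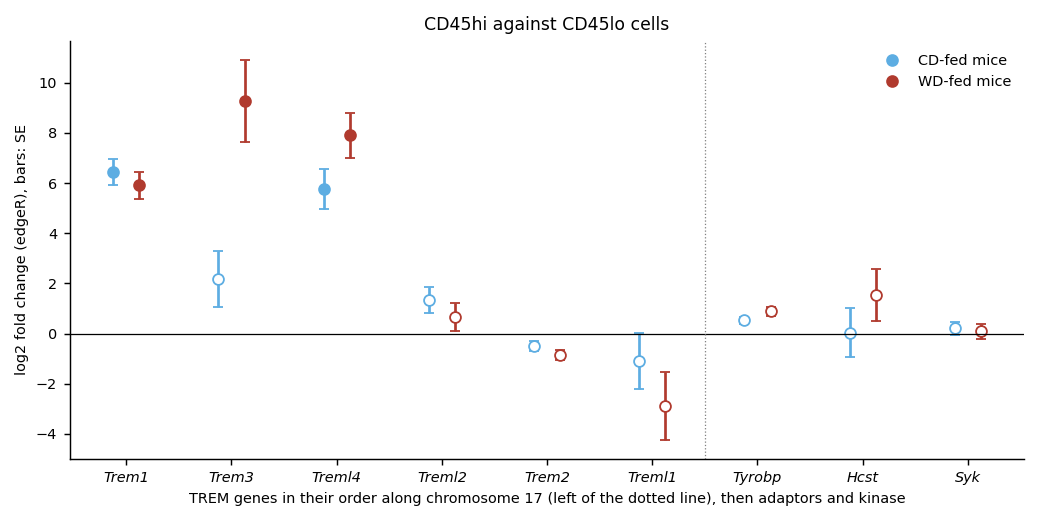
Log2 fold change of CD45hi against CD45lo cells with its SE, for the 6 receptor genes in their order on chromosome 17 and then the adaptors and Syk (filled dots, called at FDR under 0.05 for a change over 1.5-fold). Trem1 and Treml4 are filled on both diets and Trem3 in WD-fed mice, where its fitted value of 9.29 rests on CD45lo libraries with 0 or 1 counts.

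To compare levels between genes, TPM values, which scale each library to the same total after division by transcript length, were used. In CD45lo cells, Trem2 made up 96.9% ± 0.456 (SD, n = 4) of the summed TPM of the 6 receptor genes on the CD and 97.8% ± 0.593 (n = 4) on the WD. In CD45hi cells it made up 62.1% ± 10.04 (n = 4) and 55.7% ± 10.1 (n = 3), and the highest CD45hi share of Trem2, 75.1%, was below the lowest CD45lo share, 96.3%. Trem2 was still the most abundant receptor of the CD45hi fraction in each of its 7 libraries. The gap of Trem2 between CD45lo and CD45hi cells was larger by TPM than by cpm. Its TPM was 331.4 ± 47.3 and 157.9 ± 58.2 on the CD (n = 4 each). On the WD its TPM was 359.5 ± 46.3 (n = 4) and 147 ± 44.5 (n = 3). By TPM the fractions did not overlap on either diet.

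The remainder of the CD45hi receptor transcripts differed between the diets. Trem1 held 20.9% ± 6.26 on the CD and 5.54% ± 1.25 on the WD, while Treml4 held 10.005% ± 2.72 on the CD and 28.7% ± 12.4 on the WD. Trem1 was above Treml4 in all 4 CD CD45hi libraries by this share, and Treml4 was above Trem1 in all 3 WD CD45hi libraries. Trem3 ranged from 0.337% to 8.69% on the CD and from 1.16% to 18.1% on the WD. The transcript lengths in these tables vary between libraries (for Trem2 from 1103 to 2159 bases over the CD CD45hi libraries), and by cpm, with no division by length, the Trem2 share was 94.0% and 95% in CD45lo and 52.0% and 52.4% in CD45hi cells.

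**Figure D3:**
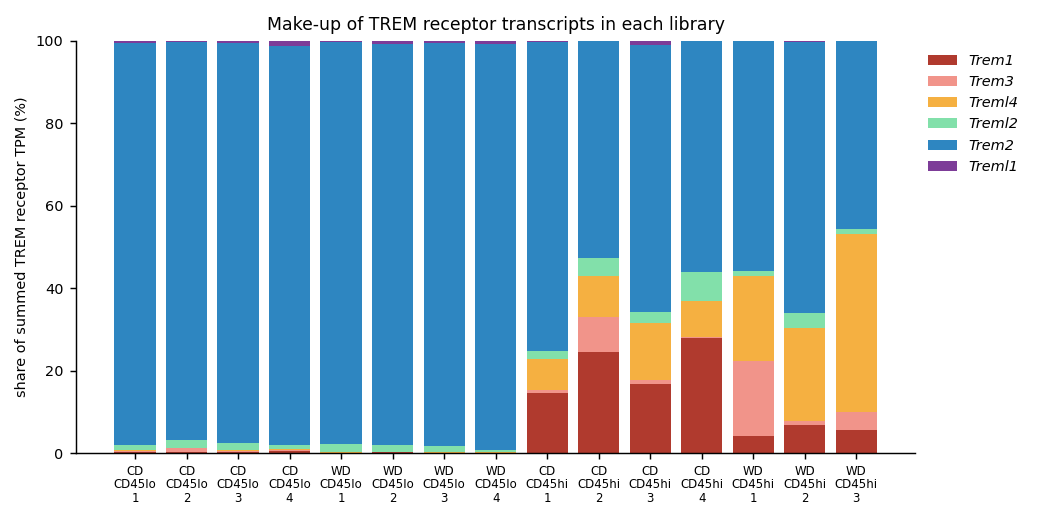
Share of each receptor gene in the summed TPM of the 6 TREM receptor genes, with 1 bar for each library (axis in percent). Trem2 fills 96.3% or more of every CD45lo bar, and the CD45hi bars also hold Trem1, which is larger on the CD, and Treml4, which is larger on the WD.

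Tyrobp transcripts outnumbered those of the 6 receptors in every group. The ratio of Tyrobp TPM to the summed receptor TPM was 6.73 ± 1.38 (SD, n = 4) in CD CD45lo, 6.19 ± 0.997 (n = 4) in WD CD45lo, 9.51 ± 2.63 (n = 4) in CD CD45hi and 10.8 ± 1.36 (n = 3) in WD CD45hi cells. In WD-fed mice the lowest CD45hi ratio, 9.80, was above the highest CD45lo ratio, 7.55, and in CD-fed mice the fractions overlapped (6.49 to 12.3 against 5.002 to 8.37). The summed receptor TPM was 342.3 ± 50.1 in CD CD45lo and 249.6 ± 51.9 in CD CD45hi cells, where mean Tyrobp TPM was nearly level. On the WD the receptor sum was 367.5 ± 45.7 in CD45lo and 263.6 ± 66.2 in CD45hi cells. By mean TPM the members were led by Tyrobp, then Trem2, then Syk in both CD45lo groups. In CD CD45hi cells Syk (61.3 ± 22.1 TPM) and Trem1 (50.9 ± 12.4 TPM) came next after Trem2 and did not differ beyond their spread, as was the case for Treml4 (72.3 ± 21.6 TPM) and Syk (53.6 ± 20.5 TPM) in WD CD45hi cells.

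The effect of the diet was then examined within each fraction. In CD45hi cells, Trem1 was at 105.2 ± 29.8 cpm on the CD (SD, n = 4) and 30.6 ± 4.12 cpm on the WD (n = 3), a log2 difference of -1.78 (95% interval -2.76 to -0.80), with an unadjusted p = 0.00134 and FDR = 0.0898 over all genes. Treml4 went the opposite way, from 20.7 ± 4.13 to 61.6 ± 5.09 cpm, a log2 difference of 1.57 (95% interval 0.15 to 3.00, unadjusted p = 0.0322, FDR = 0.239). In both genes the WD libraries lay outside the range of the CD libraries, which 5.77% of all genes did in this comparison, but neither passed the threshold. So 0 of 9 members were called by edgeR, while 0.254% of all genes were called. At an unadjusted p under 0.05 there were 2 of 9 members (Trem1 and Treml4), against 17.6% of all genes.

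Other forms of the test placed these 2 genes differently. DESeq2 called 1 member (Trem1, FDR = 0.00141), and limma-voom (FDR = 0.0299 for Trem1, 0.0498 for Treml4) and the edgeR 4 form of the quasi-likelihood test (FDR = 0.00160 and 0.0161) called both. DESeq2 called 6.7% of all genes in this comparison, limma-voom 0.18% and the edgeR 4 form 1.68%. The other alternatives called neither gene. Over all alternatives the FDR ran from 0.00141 to 0.785 for Trem1 and from 0.0161 to 0.785 for Treml4. The lower Trem1 and higher Treml4 on the WD kept their direction without any 1 library, with log2 values of -1.93 to -1.60 for Trem1 and 1.46 to 1.66 for Treml4. The neutrophil sum of the CD45hi libraries was 3978, 4480, 1715 and 4351 cpm on the CD and 1762, 1445 and 2658 cpm on the WD, and that of the monocyte markers was 954.3, 1328, 754.1 and 1483 cpm on the CD and 1052, 1524 and 1074 cpm on the WD. Within the monocyte list 6 of the 10 markers had a higher mean on the WD and 4 a lower one. Only Plac8 had no overlap (5.89 to 24.2 cpm on the CD, 27.2 to 49.9 cpm on the WD). The others with a higher mean on the WD were Ace (56.7 and 122.3 cpm), Ear2 (41.8 and 88.0 cpm), Spn (54.4 and 105.2 cpm), F13a1 (257.1 and 266.8 cpm) and Nr4a1 (176.4 and 192.7 cpm). Those with a lower mean were Ccr2 (372.9 and 270.5 cpm), Ly6c2 (14.4 and 8.46 cpm), Chil3 (116.8 and 106 cpm) and Vcan (24.1 and 18.6 cpm). WD CD45hi replicate 3 lay inside the CD range for Ace (42.9 cpm), Ear2 (43.8 cpm) and Spn (57.7 cpm). The part of these cells in the differences of Trem1 and Treml4 was not tested.

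For the remaining members of the CD45hi fraction the intervals of the diet difference included 0. Tyrobp came nearest, with a log2 difference of 0.35 (95% interval -0.01 to 0.70, FDR = 0.294). For Trem3 the difference was 2.13 (-0.32 to 4.57, FDR = 0.356), and without WD CD45hi replicate 1 it was 0.11. Trem2 differed by -0.32 (-0.75 to 0.12, FDR = 0.447), Treml2 by -0.83 (-2.01 to 0.35) and Treml1 by -1.88 (-4.63 to 0.87). Hcst and Syk differed by 1.32 (-0.89 to 3.53) and -0.08 (-0.69 to 0.52).

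In CD45lo cells 0 of 9 members and 0% of all genes were called by edgeR, with 2 of 9 members (Trem1 and Trem3) and 0.822% of all genes at an unadjusted p under 0.05. DESeq2, limma-voom and the edgeR 4 form also called 0 members. Trem3 was lower on the WD in every library (7 to 33 counts on the CD, 0 or 1 on the WD), at least 3.85-fold by the level of 3 counts (2.32-fold without CD CD45lo replicate 2), with an unadjusted p = 0.00315 and FDR = 1, and 2.42% of all genes had diets that did not overlap in this fraction. Trem1 was 1.196 ± 0.672 cpm on the CD and 0.508 ± 0.363 cpm on the WD (log2 difference -1.25, 95% interval -2.28 to -0.23, FDR = 1), with overlapping libraries. Trem2 and Tyrobp, which are well measured here, differed by 0.04 (-0.36 to 0.44) and -0.01 (-0.34 to 0.32).

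**Figure D4:**
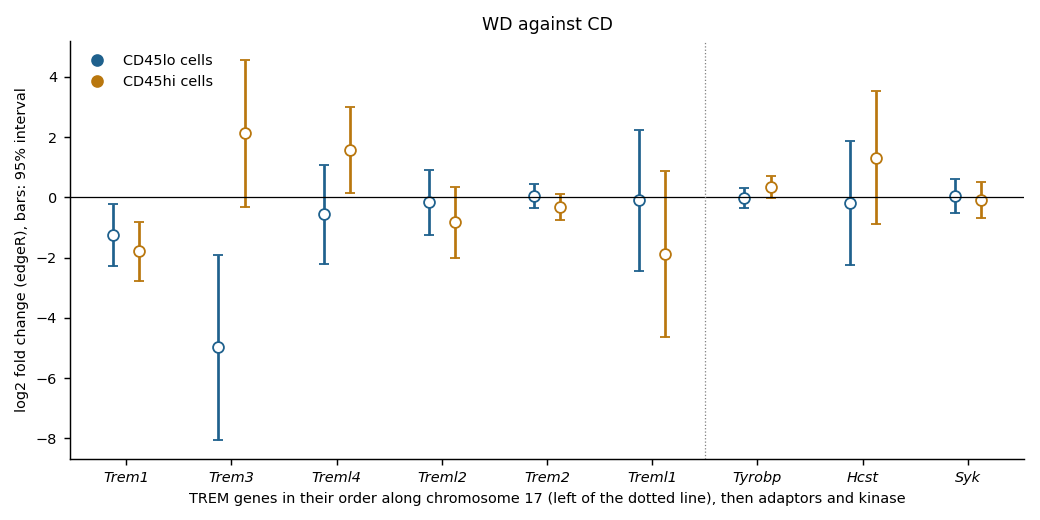
Log2 fold change of WD against CD with its 95% interval in CD45lo and CD45hi cells, for the same 9 genes in the same order (open dots, not called at FDR under 0.05). In CD45hi cells the interval of Trem1 lies below 0 and that of Treml4 above 0, and in CD45lo cells those of Trem1 and Trem3 lie below 0.

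The interaction asks whether the diet difference was the same in both fractions. edgeR called 0 of 9 members and 0.00668% of all genes. It was largest for Trem3 (log2 7.11, SE 1.85, unadjusted p = 0.00132, FDR = 0.283), the only member with an unadjusted p under 0.05, which 10.1% of all genes had. DESeq2 called it (FDR = 0.0146) and 1.26% of all genes. The Trem3 value was 5.11 without WD CD45hi replicate 1 and ran from 4.74 to 8.95 over the alternatives. limma-voom called 0 members. For Treml4 it was 2.14 (SE 1.03, FDR = 0.504), and without CD CD45lo replicate 3 it was -0.06. For Trem1 it was -0.53 (SE 0.679, FDR = 0.854), so a difference of the Trem1 diet effect between the fractions was not detectable.

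Genes that work around these receptors were counted from lists of the same pathway. The counts stand beside 5.18% of all genes called between fractions in WD-fed mice (4.01% higher, 1.17% lower). In CD-fed mice the share was 3.98% (3.39% higher, 0.588% lower). Of 15 tested genes for other receptors that use Tyrobp or Hcst, 8 were higher and 1 lower in CD45hi than in CD45lo cells of WD-fed mice, and 7 and 1 in CD-fed mice. Cd300e, an activating monocyte receptor, had 0 counts in the WD CD45lo libraries and 34.5 ± 24.0 cpm in WD CD45hi cells (n = 3). This mean was 170.2-fold the level of 3 counts in WD CD45lo cells, with no allowance for the spread between libraries. For Klrc2, an NK cell receptor (at most 2 counts in a WD CD45lo library, 10.6 ± 8.81 cpm in WD CD45hi cells), the mean was 52.0-fold that level, with the same limit. Sirpb1b (log2 5.57), Sirpb1c (4.33) and Cd300lb (4.12) also rose, Cd300lb unevenly (38.1 ± 44.2 cpm in WD CD45hi cells, n = 3). Since the Sirpb1 genes have near-identical copies between which reads were divided, their values are uncertain. Siglech, a Tyrobp-dependent receptor of microglia, fell from 734.8 ± 31.9 to 385.1 ± 26.6 cpm (log2 -0.93, SE 0.122, FDR = 0.0282). Siglech also had divided reads, in 13 libraries. The median of this list was 5.33 in WD-fed mice, the value of Pilrb2, and 4.85 in CD-fed mice, that of Sirpb1b. Reads of Pilrb1 and Pilrb2 were also divided, in 10 and 9 libraries. The median takes in Klra4 (log2 6.99, SE 2.78) and Klra8 (8.58, SE 2.67) of WD-fed mice. These 2 genes were not called and were at 0 in the CD45lo groups. The medians are therefore uncertain.

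Signalling genes downstream of Syk were mostly not called, as were most of all genes (5.18% called in WD-fed and 3.98% in CD-fed mice). Of 20 tested, 1 rose in CD45hi cells of WD-fed mice (Vav3, a guanine nucleotide exchange factor, log2 4.03, SE 0.888, FDR = 0.0136) and 1 fell (Plcg1, a phospholipase, log2 -1.62, SE 0.319, FDR = 0.0174), and 1 rose in CD-fed mice. The medians were 0.14 and -0.05. Of the 12 Src family kinases and inhibitory phosphatases, 1 rose on each diet, the myeloid kinase gene Fgr (7.15 ± 2.00 against 83.6 ± 35.1 cpm in WD-fed mice, log2 3.55).

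Of 8 tested genes for ligands and sheddases of TREM receptors, 3 were higher in CD45hi cells of WD-fed mice and 2 in CD-fed mice. Pglyrp1, a peptidoglycan-binding protein and TREM1 ligand, had a log2 fold change of 4.204 (SE 0.983, FDR = 0.0194). Apoe, a lipoprotein that binds TREM2, went from 109.8 ± 32.9 to 1709 ± 453 cpm (log2 3.96, SE 0.275, FDR = 2.53e-07), and Lgals3, a galectin that binds TREM2, by 3.13 (SE 0.722, FDR = 0.0209). Of the 12 genes known to respond to TREM1, 6 rose in WD-fed and 7 in CD-fed mice and none fell. They were led in WD-fed mice by the chemokine gene Cxcl2 (log2 7.11, SE 0.647), the cytokine gene Il1b (5.91, SE 0.414) and the chemokine gene Ccl7 (4.56, SE 0.675), and the smallest among those called were Tnf (1.97), Ccl2 (1.85) and Cd83 (1.60). The medians were 1.72 and 1.78. In the comparisons of diets and in the interaction, 0 genes of these 5 lists were called by edgeR. Of all genes, edgeR called 0.254% between diets in CD45hi cells, 0% in CD45lo cells and 0.00668% in the interaction.

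**Figure D5:**
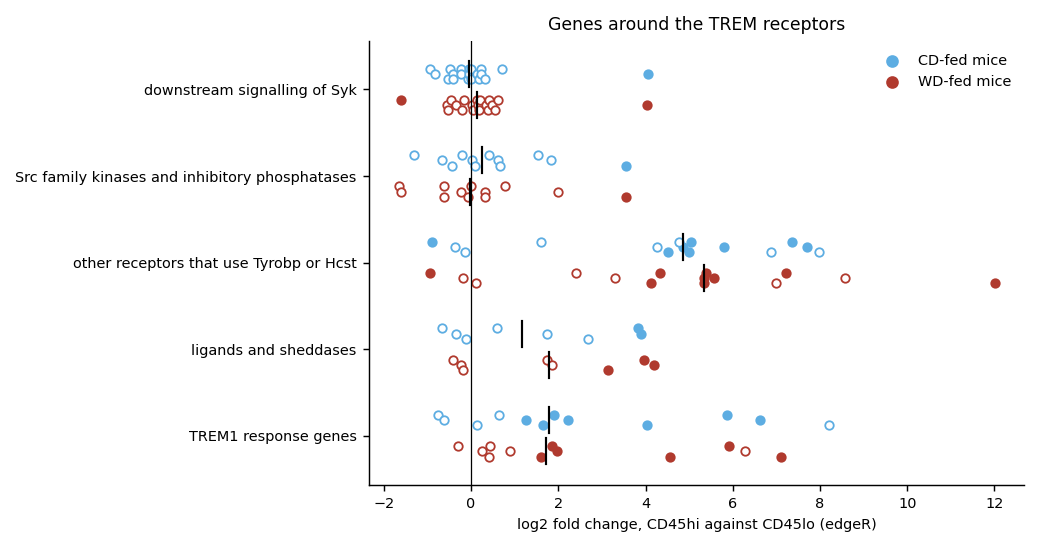
Log2 fold change of CD45hi against CD45lo cells for each tested gene of 5 lists around the TREM receptors, in CD-fed and WD-fed mice (filled dots, called at FDR under 0.05 for a change over 1.5-fold, black line, median of the list). The other Tyrobp and Hcst receptors have medians of 4.85 and 5.33, each the value of a gene with divided reads. The genes downstream of Syk lie around 0 except for Vav3 on both diets and Plcg1 in WD-fed mice.

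The genes whose pattern over the 15 libraries was most like that of each member were found by the root mean square (RMS) difference of centred log2 cpm. For Trem1 they were Il1b (RMS 0.668), Mgl2 (0.700) and Gm5150 (0.716). For Treml4 they were the MHC class II genes H2-Ab1 (0.916) and H2-Eb1 (0.969) and the invariant chain gene Cd74 (1.01). For Trem2 the nearest were Ski (0.133), the complement gene C1qa (0.191) and Itm2c (0.193), and for Tyrobp they were Rpl21 (0.156), the MHC class I light chain gene B2m (0.157) and Tnfrsf1b (0.160).

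For Trem3 the nearest were Oasl1 (1.17), E2f8 (1.25) and Epha7 (1.36). For Treml1 the nearest were Gm14853 (0.591), Vps72 (0.602) and Asb6 (0.602), for Treml2 Eid1 (0.409), Znhit6 (0.440) and Fam32a (0.497), for Hcst Noc4l (0.678), Tomm40l (0.688) and Mrpl39 (0.707), and for Syk Zmynd11 (0.219), Atxn7 (0.222) and Dnajc13 (0.225). The RMS difference grows with the counting noise of a scarce gene, so the values of Trem3, Treml1 and Hcst cannot be set beside those of Trem2, Tyrobp and Syk.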

How the data were processed

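CD11b+CD45hi and CD11b+CD45lo cells were profiled by poly(A)-selected RNA-seq. The authors trimmed the reads, quantified them with RSEM 1.2.12 on mm10 and deposited, per gene and library, expected counts that are not normalized and TPM. Reads that match several genes are divided by RSEM, but the counts of the 9 members were whole in all libraries (within 0.005). Expected counts were rounded, genes reaching 1 cpm in 2 or more of the 15 libraries were kept (14967, with all 9 members), and counts were normalized by TMM. All libraries, grouped by the diet and CD45 level in their labels, entered 1 fit with edgeR 4.0.16 (R 4.3.3, earlier quasi-likelihood form). glmTreat at 1.5-fold compared the fractions, and glmQLFTest the diets, their interaction and, where stated, any change. FDR is Benjamini-Hochberg over all genes tested, with 0.05 as the threshold. The SE is the log2 fold change divided by the square root of F.

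The named genes are the 9 members, the 3 highest and 3 lowest called genes of each list in WD-fed mice, and 3 nearest patterns for each member. Members and lists were chosen with earlier results of these data known. Cd300c2 was matched by its identifier. Alternatives were DESeq2 1.42.0, limma-voom (limma 3.58.1), other filters, scalings and fold limits, the compared groups alone, replicate blocks and leaving out each library. Leaving out a pair of CD45hi libraries and shares by cpm were added after seeing the data. The tests were checked on simulated counts. The mean correlation of same-numbered CD45hi and CD45lo libraries was 0.016 by title and 0.025 by file name, and 0 of 7 pairs passed 0.1. With so few libraries of different cell fractions, such values cannot tell whether the numbers mark pairs from the same brain. Chi-square per degree of freedom between replicates was 20.6 or more, so none was counted as a repeat.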

Additional observations from a re-analysis of the deposited data

Results flagged for a closer look

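Of 27 sets of 4 libraries of a group (9 genes in the 3 groups of 4), 7 had a library whose gap to the nearest other passed Dixon's 95% critical value for 4 samples. That value lets about 1 in 20 sets pass only if the levels are normally distributed. Sets of a few counts need not be, and 1 count against 0 in the others always passes. The 7 sets were therefore not weighed against chance. Trem3 stood apart in CD CD45hi replicate 2 (11.3 cpm), in CD CD45lo replicate 2 (1.71 cpm) and in WD CD45lo replicate 1, where 0.0656 cpm is 1 count against 0 in the others. Treml4 stood apart in CD CD45lo replicate 3 (1.29 cpm), Treml1 in CD CD45lo replicate 4 (2.50 cpm), Hcst in CD CD45lo replicate 4 (1.87 cpm) and Tyrobp in WD CD45lo replicate 3 (495.3 cpm). The group of 3 WD CD45hi libraries was too small for this rule.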

How the results depend on the processing

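The number of members called between fractions in WD-fed mice was 5 with a 1.5-fold limit set after glmQLFTest and 5 with DESeq2, both by adding Trem2 and Tyrobp. Between diets in CD45hi cells it was 1 with DESeq2 (Trem1), 2 with limma-voom and 2 with the edgeR 4 form (Trem1 and Treml4), and for the interaction it was 1 with DESeq2 (Trem3). The causes of these shifts were not tested. No other alternative, among them leaving out each library, changed the number of members called. Over all genes, calls between diets in CD45hi cells were 38 in the reported fit and ran from 0 with the compared groups alone to 1003 with DESeq2, and from 1 to 286 without single libraries, with 1 by glmTreat and 252 by the edgeR 4 form. DESeq2 called 2296 genes between fractions in WD-fed and 1784 in CD-fed mice, 4 between diets in CD45lo cells and 188 in the interaction, and the limit set after glmQLFTest left 1335 and 1162 between fractions, against 775, 595, 0 and 1 in the reported fits. Without single libraries the calls between fractions in WD-fed mice ran from 513 (without WD CD45lo replicate 3) to 920. The median log2 value of all genes between fractions in WD-fed mice moved to -0.27 with limma-voom.

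Whether replicate numbers mark libraries of the same brain is not stated, and 3 of 7 pairs by title and 4 of 7 by file name correlated best with their own number. The replicate block by title changed no call among the members: Trem1 between diets in CD45hi cells was -1.58 (FDR = 0.202). The block by file name gave no value for the comparisons of diets. Calls over all genes between diets in CD45hi cells were 2 with the title block, and in WD-fed mice calls between fractions were 604 with it and 353 with the file-name block, against 775.

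Directions that turned belonged to log2 values near 0 or to scarce genes. Syk between fractions in WD-fed mice was -0.049 with the file-name block. Hcst between fractions in CD-fed mice was -0.13 with limma-voom and -0.070 and -0.15 with the title and file-name blocks. In CD45lo cells the diet value was 0.58 for Treml4 and 0.00097 for Tyrobp with limma-voom, and 0.024 for Hcst with the title block. Without the CD45hi libraries set apart on PC2, Hcst (-0.54) and Syk (-0.017) between fractions in CD-fed mice, Trem3 (-0.25) and Syk (0.47) between diets in CD45hi cells and Syk in the interaction (0.42) turned.

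Without single libraries, the log2 value between fractions ran from -0.19 to 0.41 for Syk in WD-fed mice, and in CD-fed mice from -0.019 to 0.34 for Syk and from -0.54 to 0.32 for Hcst. Between diets in CD45hi cells it ran from -0.36 to 0.24 for Syk. Between diets in CD45lo cells it ran from -0.024 to 0.099 for Trem2, -0.062 to 0.041 for Tyrobp, -0.32 to 0.14 for Treml2, -0.94 to 1.64 for Treml4, -0.31 to 0.35 for Treml1, -0.47 to 0.21 for Hcst and -0.031 to 0.12 for Syk. In the interaction it ran from -0.40 to 0.20 for Syk, -0.061 to 2.52 for Treml4 (low without CD CD45lo replicate 3) and -0.94 to 0.068 for Trem1 (high without WD CD45lo replicate 2). Genes near 3 counts, such as Trem3, Treml1 and Hcst in some groups, are limited by depth.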
